A study of Sorghum bicolor with 4 samples.

Results

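The 144 genes described here were abundant in the middle stem internode of sweet sorghum at physiological maturity and had lower values at the earlier milk stage of the grain. They were chosen from the 34458 rows of the authors' deposited table by 3 conditions. The row carries exactly 1 Sobic gene identifier (31423 rows do), the value at maturity is at least 100 FPKM, and that value is at least 2 times the value at the milk stage. FPKM is the number of fragments scaled to the length of the locus and to the number of mapped fragments, so values can be set side by side between genes. Both value columns were used in the choice, so the levels and ratios of the 144 genes describe the choice and are no evidence for it.

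The study sequenced RNA from the middle internode of field-grown plants of 1 line, ICSA38, at Physiological maturity and at the stage labelled Milky stage, with 2 libraries per stage and 4 in all. No other genotype, treatment or tissue enters these values, and the labels do not say whether the libraries came from separate plants or pools. The table holds 1 value per gene and stage, taken from its headings as the authors' value combining the libraries of that stage. No standard deviation, test or p-value can be given, and no difference below can be set against the spread of the libraries. The depth behind each value is unknown, and the values of all rows summed to 666768 FPKM at maturity and 800834 FPKM at the milk stage.

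As background, a grass internode stops elongating before the grain fills, and its vascular bundles and outer layers then thicken and lignify their walls. In sweet sorghum the thin-walled pith cells between the bundles store sucrose in their vacuoles. At the milk stage the endosperm of the grain is still liquid and draws sugar from leaves and stem. At physiological maturity the grain has reached its full dry weight and that draw has ended. An RNA-seq value is a share of the RNA of the whole internode, so fewer cells of a type and less RNA per cell cannot be told apart in it.

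The table does not pair its identifiers with gene names, and 0 of its 34129 identifiers matched the reference gene table used here. The genes are therefore given by identifier, with no name or role, and the labelled tissue could not be checked against marker genes. The chromosome is the number in the identifier, and identifier order stands in for gene order along it.

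The 144 genes made up 0.418% of the rows and held 6.47% of the FPKM sum at maturity, against 1.59% at the milk stage. Their summed value was 43162 FPKM at maturity and 12757 FPKM at the milk stage, 3.38-fold higher. Of the 1090 genes at 100 FPKM or more at maturity, they are the 13.2% that were at least 2 times higher. At the milk stage 1234 genes reached 100 FPKM, and 317 of them, 25.7%, were at least 2 times higher there than at maturity. These shares depend on how the stages are scaled, and with both set to equal sums 239 genes met the conditions in place of 144. Among all 16568 genes at 1 FPKM or more at either stage, 16.4% were at least 2 times higher at maturity.

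**Figure D1:**
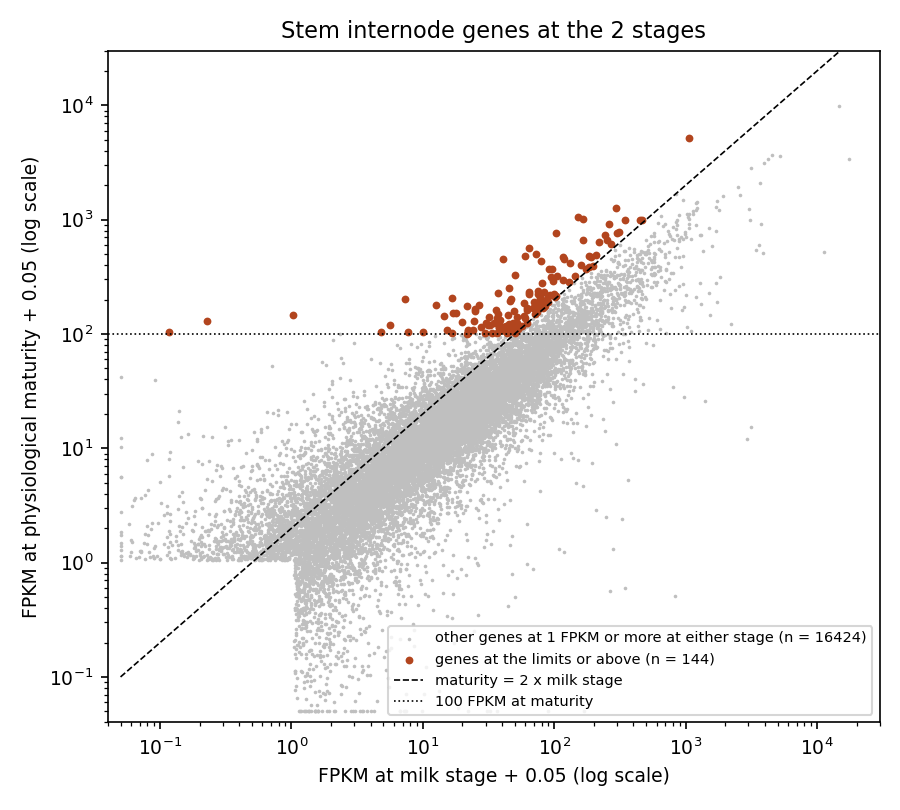
FPKM of each gene with 1 identifier at physiological maturity (vertical axis) and milk stage (horizontal axis), both log scales after adding 0.05. The 144 genes (dark points) lie above 100 FPKM at maturity and above the line of 2 times the milk stage, and 3 of them stand apart at the left with under 1 FPKM at the milk stage.

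In FPKM as deposited, with a larger sum at the milk stage, the differences of abundant genes lower at maturity summed to more than those of the 144. The 317 genes abundant at the milk stage and lower later held 5.46% of the sum at maturity, against 19.7% at the milk stage. Their summed value was 36402 FPKM at maturity and 157535 FPKM at the milk stage, a difference of -121133 FPKM, against 30405 FPKM for the 144 genes. The other 946 genes at 100 FPKM or more at maturity held 40.4% of the sum at maturity and 46.9% at the milk stage, with a median ratio of 0.917. Summed over every row of the table with a higher value at maturity (14044 rows), the increases came to 124844 FPKM. The 144 genes made up 24.4% of that total. The decreases of the other rows came to 258910 FPKM, of which the 317 lower genes made up 46.8%.

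**Figure D2:**
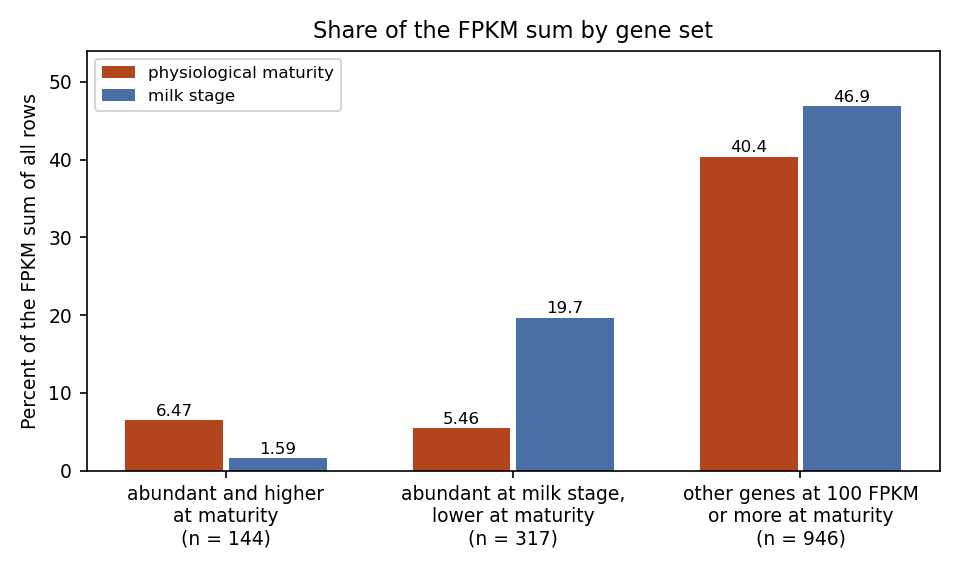
Percent of the FPKM sum of all rows held by 3 sets of genes at physiological maturity (left bar of each pair) and milk stage (right bar), from 1 combined value per stage. The 144 abundant genes higher at maturity held 6.47% at maturity and 1.59% at the milk stage, while the 317 genes lower at maturity held 5.46% and 19.7% at the same stages.

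A single gene stood far above the rest of the 144. Sobic.009G197300 had 5208 FPKM at maturity, against 1062 FPKM at the milk stage, 4.90-fold higher, and was the 4th most abundant row at maturity and the 60th at the milk stage. It alone held 0.781% of the FPKM sum at maturity, against 0.133% at the milk stage. Without it the other genes summed to 37954 FPKM at maturity and 11695 FPKM at the milk stage, 3.25-fold higher. The group's level was spread over many genes, and the 20 most abundant held 46.5% of the group's summed FPKM at maturity and 42.9% at the milk stage.

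Another 3 genes passed 1000 FPKM at maturity. Sobic.003G442900 had 1257 FPKM at maturity and 294 FPKM at the milk stage. Sobic.003G235500 had 1061 FPKM at maturity and 151 FPKM at the milk stage, 7.04-fold higher, and Sobic.004G159733 had 1013 FPKM and 167 FPKM at the same stages, 6.08-fold higher. These last genes ranked 36th and 38th among all rows at maturity, against 910th and 805th at the milk stage, a wider gap in rank than that of the most abundant gene.

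Below them 13 genes lay between 500 and 1000 FPKM at maturity. The uppermost were close to each other at maturity and less so at the milk stage. Sobic.010G275200 had 999 FPKM at maturity and 345 FPKM at the milk stage, Sobic.007G057100 had 998 FPKM and 451 FPKM, and Sobic.007G047300 had 997 FPKM and 463 FPKM. The last was also the most abundant of the 144 at the milk stage after Sobic.009G197300. Sobic.008G030600 followed with 912 FPKM at maturity, against 262 FPKM at the milk stage. Within this range the ratio was lowest for Sobic.007G047300 at 2.15 and highest for Sobic.003G190100 at 8.78, which had 562 FPKM at maturity and 64.0 FPKM at the milk stage. Sobic.001G291200 also stood out, with 758 FPKM at maturity and 104 FPKM at the milk stage, 7.31-fold higher.

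The other genes of this range were 2.25-fold to 4.03-fold higher at maturity. Sobic.010G199200 had 772 FPKM at maturity and 310 FPKM at the milk stage, Sobic.002G212000 had 762 FPKM and 299 FPKM, and Sobic.001G325700 had 736 FPKM and 243 FPKM. Sobic.005G050200 had 670 FPKM at maturity and 166 FPKM at the milk stage, the largest ratio of these. Sobic.009G197000 had 664 FPKM at maturity and 254 FPKM at the milk stage, Sobic.001G149500 had 638 FPKM and 220 FPKM, and Sobic.008G094000 had 612 FPKM and 272 FPKM. Each of them was already above 150 FPKM at the milk stage and none was among the 200 most abundant rows then.

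**Figure D3:**
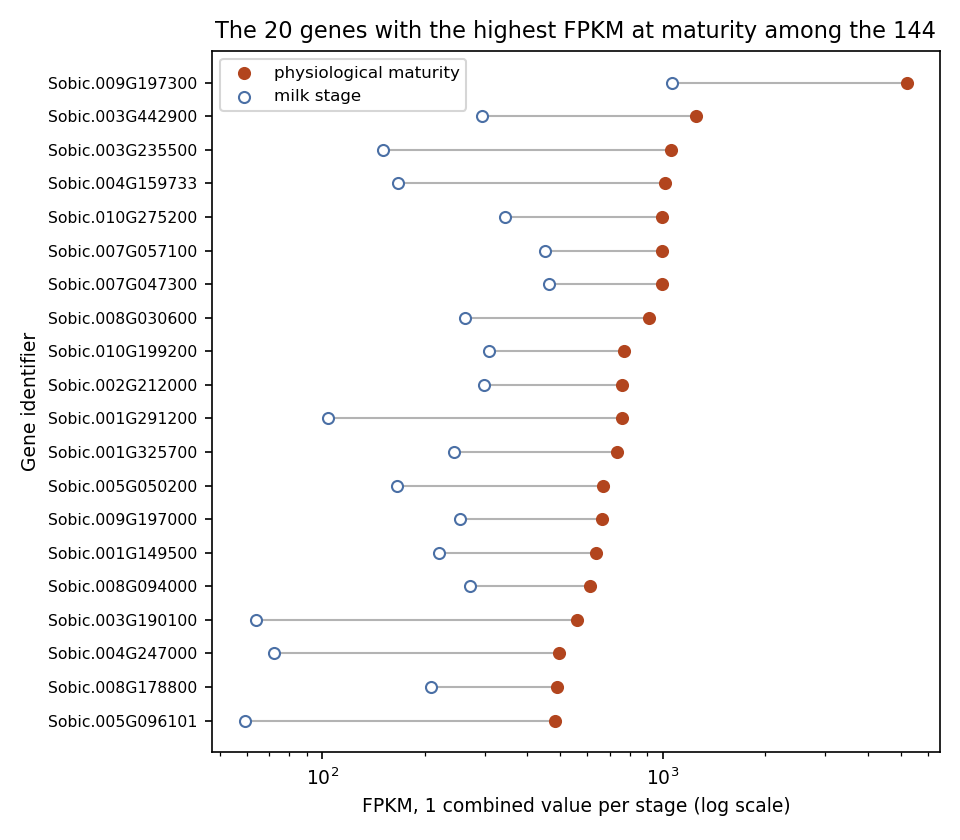
FPKM of the 20 most abundant of the 144 genes at physiological maturity (filled points) and milk stage (open points) on a log axis, 1 combined value per stage with no error. Sobic.009G197300 lies apart at 5208 FPKM, the others span 481 to 1257 FPKM at maturity, and the length of each line is the ratio, longest for Sobic.003G190100 and Sobic.005G096101.

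Most of the 144 genes lay well below the most abundant of them at both stages, though all had at least 100 FPKM at maturity. At maturity their median was 167 FPKM, with quartiles of 117 and 315 FPKM, and 85 of them lay between 100 and 200 FPKM. The median at the milk stage was 52.7 FPKM, with quartiles of 36.8 and 93.2 FPKM. Only 32 of the 144 already reached 100 FPKM at the milk stage, and the other 112 were below that level. Among the 100 most abundant rows of the table, 16 were of this group at maturity and 1 at the milk stage. Among the 500 most abundant, 57 were at maturity and 11 at the milk stage.

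The ratio of maturity to milk stage had a median of 3.003, with quartiles of 2.36 and 4.61. It was under 3 for 72 genes, between 3 and 5 for 40, between 5 and 10 for 21, between 10 and 30 for 8 and above 30 for 3. The genes under 3 held 2.77% of the FPKM sum at maturity, against 0.962% at the milk stage, and the 8 between 10 and 30 held 0.221%, against 0.0131%. Below 1000 FPKM at maturity the median ratio was alike in each range of level. It was 2.98 for the genes at 100 to 200 FPKM, 3.01 at 200 to 500 FPKM and 2.90 at 500 to 1000 FPKM. For the 4 genes above 1000 FPKM it was 5.49, with a lowest ratio of 4.28. The Spearman correlation of level at maturity and ratio was 0.017 across the 144 genes, which share their libraries and the limits of the choice, and is a description only.

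The largest ratios belonged to 3 genes that were nearly undetected at the milk stage. Sobic.010G178000 had 105 FPKM at maturity, against 0.0679 FPKM at the milk stage. Sobic.010G253500 had 131 FPKM at maturity, against 0.177 FPKM at the milk stage, and Sobic.001G147500 had 147 FPKM, against 0.986 FPKM. Their plain ratios of 1541, 741 and 149 rest on milk-stage values under 1 FPKM of unknown counting error, so their size is not precise. After adding 1 FPKM to each value the ratios were 98.9, 112 and 74.7 in the same order of genes, which puts Sobic.010G253500 first. No other gene of the 144 was below 4 FPKM at the milk stage, and none was listed at 0.

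After these came 8 genes with ratios between 10 and 30, most of them near 100 to 200 FPKM at maturity. Sobic.009G159700 had 204 FPKM at maturity, against 7.27 FPKM at the milk stage, 28.02-fold higher. Sobic.005G115800 had 104 FPKM at maturity and 4.78 FPKM at the milk stage, and Sobic.006G149400 had 120 FPKM and 5.58 FPKM, 21.8-fold and 21.5-fold higher. The next were Sobic.006G211701 (14.3-fold higher), Sobic.005G037300 (13.5-fold) and Sobic.001G291600 (12.4-fold). Sobic.003G087200 was the only gene of these 8 above 300 FPKM, at 450 FPKM at maturity and 40.4 FPKM at the milk stage, 11.1-fold higher. Its rank among all rows was 157 at maturity and 3576 at the milk stage.

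The limits of the choice cut through a continuous range of genes. Just inside the ratio limit were Sobic.004G162000 (397 FPKM at maturity and 198 FPKM at the milk stage, a ratio of 2.0002), Sobic.010G039150 (2.015) and Sobic.001G473300 (2.028). Just outside it were Sobic.005G034000 (119 and 59.8 FPKM, a ratio of 1.996), Sobic.002G023900 (1.995) and Sobic.003G221600 (1.991). Near the abundance limit, Sobic.004G259366 had 100.07 FPKM at maturity, Sobic.001G498000 101 FPKM and Sobic.009G070400 101 FPKM. Below it, Sobic.003G062000 had 99.2 FPKM at maturity and 2.27 FPKM at the milk stage, a ratio of 43.6 that only 3 of the 144 genes exceeded. Sobic.003G410900 (99.0 FPKM) and Sobic.004G303466 (99.0 FPKM) were next below.

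Position was not used in the choice. The 144 genes lay on all 10 chromosomes, with 24 each on chromosomes 1 and 3, 20 on chromosome 4 and 9 on chromosome 8. Chromosomes 5 and 8 carry few abundant genes, 41 and 42 at 100 FPKM or more at maturity, yet 10 and 9 of these were of the group, 24.4% and 21.4%. On the other chromosomes the share ran between 8.47% on chromosome 9 (10 of 118) and 16.5% on chromosome 4 (20 of 121). Taken jointly, 22.9% of 83 abundant genes on chromosomes 5 and 8 were of the group, against 12.4% of 1007 on the other 8 chromosomes. These chromosomes were singled out after the values were seen, the counts are small, and the difference was not tested.

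The other genes of the chromosomes showed the same order at the top. Leaving out the 144, 20.7% of the genes at 1 FPKM or more at either stage on chromosome 5 and 19.6% on chromosome 8 were at least 2 times higher at maturity, and the other chromosomes ran between 13.4% and 17.9%. Genes that were abundant at the milk stage and lower at maturity were not more frequent there, with 20.2% of 84 on chromosomes 5 and 8, against 26.1% of 1150 elsewhere. Chromosomes 5 and 8 had the highest shares of the group among abundant genes under equal-sum, median-of-ratios and quantile scaling as well, at 32.6% and 25%, 25% and 21.4%, and 34.1% and 26.7%. Chromosome 5 is the first value of each pair. The next highest shares under these scalings were 24.3% on chromosome 4, 15.1% on chromosome 3 and 21.5% on chromosome 4. With equal sums chromosome 8 was thus barely above chromosome 4. The scalings reuse the same 2 columns, so they are no separate evidence for the order.

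**Figure D4:**
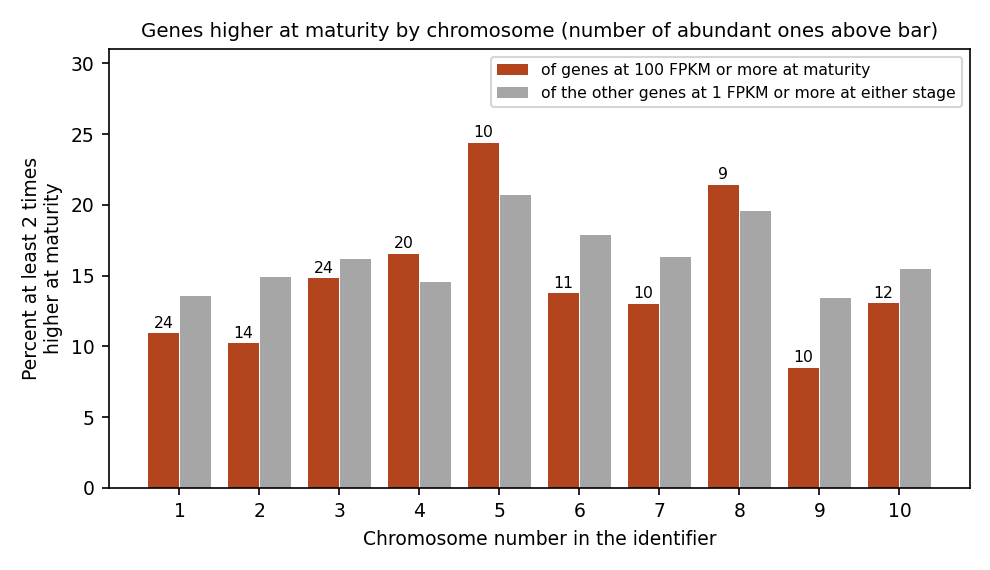
Percent of genes at least 2 times higher at maturity by the chromosome number in the identifier, for genes at 100 FPKM or more at maturity (dark bars, with the number of the 144 above each) and for the other genes at 1 FPKM or more at either stage (grey bars). Both bars are highest on chromosomes 5 and 8, the dark ones at 24.4% and 21.4%.

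The leading gene held most of the summed level at maturity on chromosome 9 only. On the other chromosomes its share ran between 12.6% on chromosome 6 and 29.96% on chromosome 7. On chromosome 9 the 10 genes summed to 7608 FPKM at maturity and 1870 FPKM at the milk stage, and Sobic.009G197300 made up 68.5% of the sum at maturity. The 24 genes of chromosome 3 summed to 6963 FPKM at maturity and 1808 FPKM at the milk stage, with 18.05% from Sobic.003G442900. On chromosome 6 the highest of 11 genes, Sobic.006G173900, reached only 217 FPKM at maturity, against 103 FPKM at the milk stage. The summed values were 4.07-fold higher at maturity on chromosome 9 and 2.42-fold on chromosome 7, where Sobic.007G057100 and Sobic.007G047300 combined high levels with low ratios.

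Most of the genes had no other of the group as direct neighbour, a count that was not made for other sets of genes. It therefore does not show whether the 144 lie more scattered or closer together than other genes. When each was set beside the next identifiers listed on its chromosome, 4 of the 144 had another of the group as direct neighbour. These are Sobic.002G056200 (220 FPKM at maturity and 93.0 FPKM at the milk stage) with Sobic.002G056300 (250 and 45.0 FPKM), and Sobic.007G047300 with Sobic.007G047400 (215 and 89.2 FPKM). The first pair differed in ratio, 2.37 and 5.56, and the second less so, 2.15 and 2.41. How the authors' counting treated reads that match several similar genes is not given in the sources used here, so values of neighbours that resemble each other are uncertain. With rows of several identifiers allowed as the neighbour, a comparison added after seeing the data, the count was 6.

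In all, 18 of the 144 lay within 500 identifier numbers of another, where numbers mostly rise in steps of 100. This count too was not made for other sets of genes. On chromosome 9, Sobic.009G197000 and the most abundant gene, Sobic.009G197300, enclosed Sobic.009G197100 (0.983 FPKM at maturity and 2.38 FPKM at the milk stage) and Sobic.009G197200 (40.3 and 87.5 FPKM). Both enclosed genes were lower at maturity, opposite to the genes on either side. On chromosome 1, Sobic.001G291200 and Sobic.001G291600 lay 400 numbers apart, and Sobic.001G291300 between them had 60.5 FPKM at maturity and 3.97 FPKM at the milk stage, 15.3-fold higher but below the abundance limit. The preceding Sobic.001G291100 had 89.6 FPKM at maturity and 149 FPKM at the milk stage.

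Around a pair on chromosome 8, several of the other identifiers were also higher at maturity. Sobic.008G117300 had 114 FPKM at maturity and 43.7 FPKM at the milk stage, and Sobic.008G117800 had 139 and 52.4 FPKM. Of the 7 other expressed identifiers between 300 numbers before the pair and 300 after it, 5 were at least 2 times higher at maturity and 1 at least 2 times lower. Among them Sobic.008G117400 had 80.9 FPKM at maturity and 9.58 FPKM at the milk stage, and Sobic.008G118000 had 93.7 and 20.3 FPKM. Around Sobic.007G047300 and Sobic.007G047400 it was 2 of 3 expressed identifiers, with 0 lower by that factor. Both of these were low in level, Sobic.007G047450 at 1.16 FPKM at maturity and 0.273 FPKM at the milk stage and Sobic.007G047600 at 4.60 and 2.12 FPKM. Around Sobic.009G197000 and Sobic.009G197300 it was 2 of 5, with 3 lower. Around each of the other close pairs it was 0 or 1 of 4 to 7. Of these pairs, the one from Sobic.002G056200 had 3 of 6 lower by that factor and the one from Sobic.004G017800 2 of 6. The rest had 0 or 1 lower. Over all 16568 expressed genes 16.4% were at least 2 times higher, and 19.6% on chromosome 8 with the group left out. The share lower by plain ratio was not counted over all expressed genes. Differences from these shares were not tested. The stretch on chromosome 8 was picked after its values were seen.

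**Figure D5:**
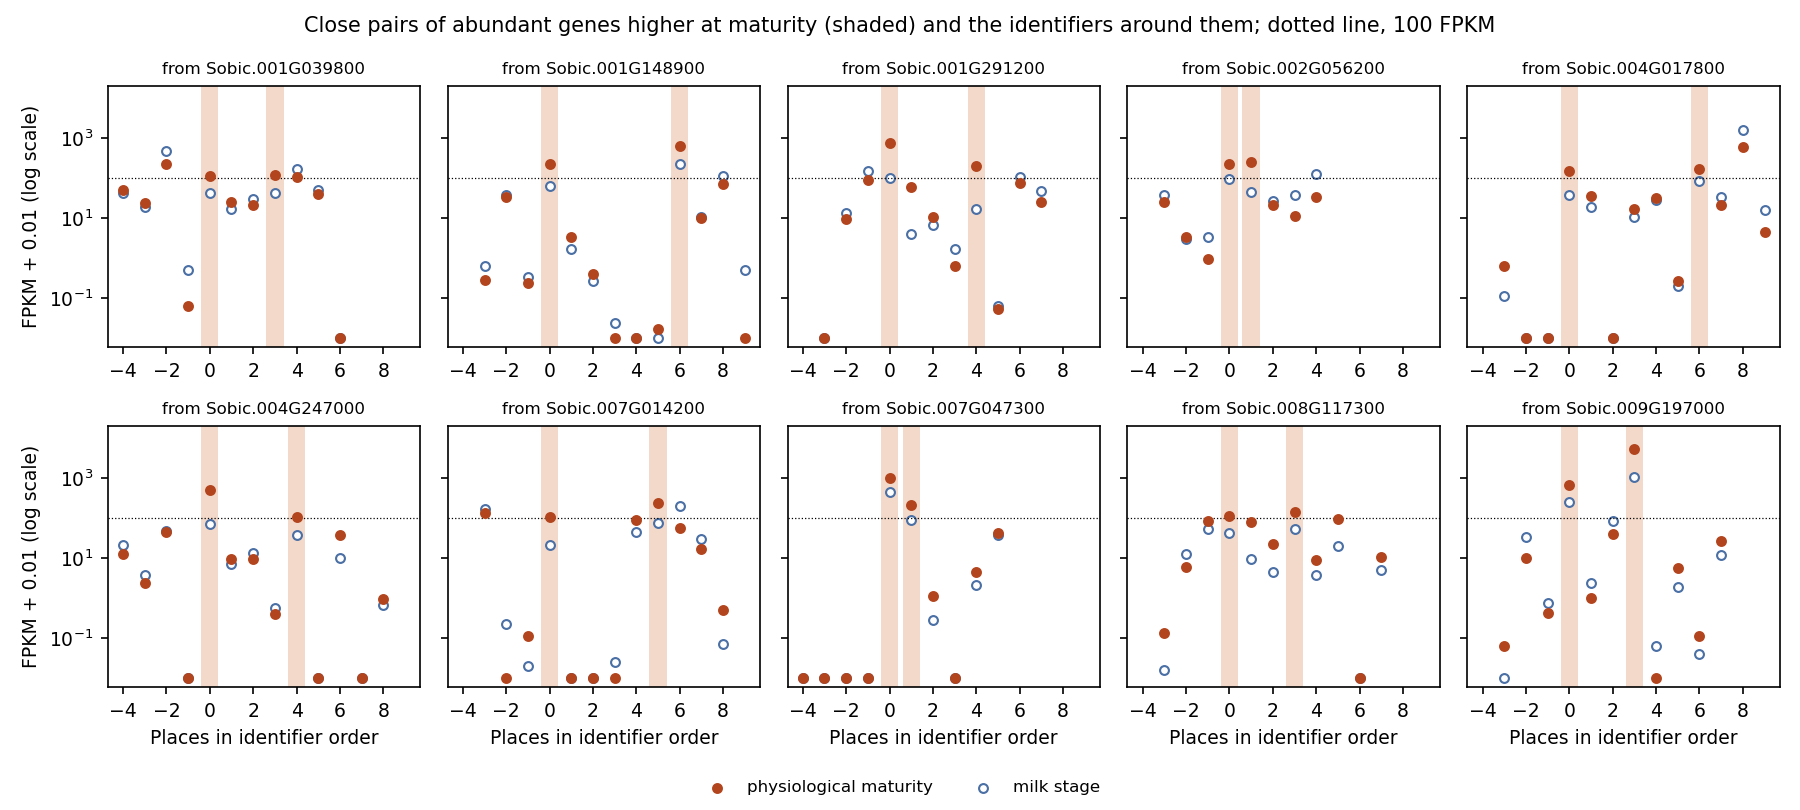
FPKM plus 0.01 on a log axis at physiological maturity (filled) and milk stage (open) for the 10 pairs of genes of the group within 600 identifier numbers of each other (shaded) and the identifiers around them, by places in identifier order from the first gene of the pair. Beside most pairs the unshaded identifiers include higher and lower values at maturity, while from Sobic.008G117300 most are higher and from Sobic.007G047300 those above 1 FPKM are higher.

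Over the whole group, the expressed neighbours leaned slightly towards higher values at maturity. The 282 identifiers at 1 FPKM or more that flanked the 144 genes, and were not of the group, had a median log2 difference of 0.12 after adding 1 to each FPKM. That difference is maturity minus milk stage and was 0.04 over the 18911 expressed identifiers that flank any expressed identifier of another row. Of the 282, 16.0% were at least 2-fold higher on this scale and 6.38% at least 2-fold lower, where the shares over those 18911 were 11.3% and 10.5%. The neighbours of the 946 other abundant genes had a median of -0.02, with 10.3% higher and 12.4% lower. Identifiers of a merged row share its value, the difference was not tested, and reads shared between touching genes were not tested as its source.

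Immediately around the named genes the neighbours were mostly under 100 FPKM at maturity, as were most expressed genes, of which 1090 of 16568 reached that level. Within 2 places of the 31 genes named by level or ratio or chosen by identifier, 72 other identifiers had 1 FPKM or more at either stage, and 2 of them had 100 FPKM or more at maturity. Of the 72, 14 were at least 2 times higher at maturity and 10 at least 2 times lower. Over all 16568 expressed genes 16.4% were at least 2 times higher. After adding 1 FPKM to each value, 11.3% of them were higher and 10.7% lower by that factor. The share lower by plain ratio was not counted over all expressed genes, so the 10 have no like share beside them. The difference from the 72 was not tested. Beside Sobic.003G442900 both adjoining genes were under 50 FPKM at each stage, with ratios of 0.706 and 1.09. Sobic.010G178000, with its near absence at the milk stage, had Sobic.010G177800 2 places before it at 95.5 FPKM at maturity and 12.2 FPKM at the milk stage, 7.81-fold higher. Sobic.001G344500, at 209 FPKM at maturity and 77.2 FPKM at the milk stage, was followed by Sobic.001G344600 at 44.4 and 9.05 FPKM, 4.90-fold higher.

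The share of identifier numbers that do not end in 00 was near that of expressed genes in the group, and lower among other abundant genes. They made up 11 of the 144, or 7.64%, against 30 of the 946 other abundant genes, or 3.17%. The share was 6.35% of expressed genes with a chromosome number and 14.9% of all 31323 genes with 1 identifier and a chromosome number. Among the genes abundant at the milk stage and lower at maturity they were 8 of 317, or 2.52%. The 11 include Sobic.004G159733 and Sobic.005G096101 (481 FPKM at maturity and 59.3 FPKM at the milk stage) among the 20 most abundant, and Sobic.006G211701 (179 and 12.5 FPKM) among the largest ratios. One of the 11, Sobic.001G038050 (175 and 21.8 FPKM), was the only gene of the 144 whose row bears the gene identifier in place of an assembled locus number. The counts are small and the difference was not tested.

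Absolute limits make membership depend on how the stages are scaled. Equal-sum and median-of-ratios scaling multiply every ratio by 1 common factor, and the lowest ratio of the 144 genes became 2.40 and 1.96. That all of them stayed higher at maturity under these follows from the minimum ratio of 2 and is no evidence for the choice. Under quantile scaling, made from the same 2 columns, the lowest ratio was 2.24. Equal sums moved the median ratio of genes at 1 FPKM or more at both stages by 0.26 on the log2 scale, and with it 239 genes met the conditions, the 144 among them.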

How the data were processed

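Per the labels' protocols, a modified Trizol extraction of total RNA was followed by stranded library preparation. The submitters' processing notes list HISAT2 2.0.5, Bowtie2 2.2.9, cutadapt 1.8.1 and Cuffdiff, with no role for any of them. Not given in the sources used here are the genome build, the strand setting, the scaling of libraries and the treatment of reads with several matches. The authors deposited FPKM values in 1 table with 2 value columns, 1 per stage. The planned test across 4 libraries could not be made, and differences are plain ratios of the deposited values. Depth is unknown.

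The genes and the comparisons were chosen with earlier results of these data known. Genes named are the 20 with the highest FPKM at maturity, the 10 with the largest ratio, 3 on each side of each limit, direct neighbours within the group and 1 chosen by identifier (Sobic.001G344500). Others were named after their values were seen. The planned lists by product words and marker genes could not be formed, since no identifier matched the reference table. Identifiers of merged rows were given their row's value in identifier order. Expressed means 1 FPKM or more at either stage. Log2 differences of neighbours used a pseudocount of 1. Equal sums set both stages to the mean of their sums. Calculations used pandas 2.3.3 and numpy 2.4.6 under Python 3.11.15, and figures matplotlib 3.10.9.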

Additional observations from a re-analysis of the deposited data

How the results depend on the processing

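The number of genes meeting the conditions, 144 as reported, was 304 with a minimum of 50 FPKM at maturity, 59 with 200 FPKM, 252 with a minimum ratio of 1.5, 48 with a ratio of 4 and 239 with equal sums. It lay between 138 and 208 under median-of-ratios and quantile scaling, pseudocounts of 1 and 5, a minimum of 1 FPKM at both stages and rows of any number of identifiers. Median-of-ratios scaling lost 5 of the 144 and added 0, while equal sums added 95 and quantile scaling 64, both losing 0. Under equal sums the 239 genes then meeting the conditions held 8.79% of the sum at maturity and 2.59% at the milk stage. Under quantile scaling 208 genes met them and held 9.75% and 2.88%. The median ratio lay between 2.95 and 2.98 under the scalings and a pseudocount of 1. Under each scaling it was taken over the genes then meeting the conditions. Those sets share the minimum ratio of 2, so a like median does not show that the ratios of the 144 stayed the same. Direct neighbours within the group numbered 10 of the 239 genes with equal sums, against 4 of the 144 as reported. When identifiers within 500 in number counted as neighbours they were 18 of the 144. A pseudocount of 1 lowered the 3 largest ratios, 1541, 741 and 149 as reported, to 98.9, 112 and 74.7. No paired analysis was possible because each stage has only 1 combined value, and no library could be left out for the same reason. With unknown depth, milk-stage values under 1 FPKM carry an unknown counting error.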

Other observations

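Rows that carry several identifiers or none stand outside the 144 genes, and 21 of them passed the same limits on level and ratio. They held 1.21% of the FPKM sum at maturity, against 0.381% at the milk stage. Of 122 rows with several identifiers at 100 FPKM or more at maturity, 16 were at least 2 times higher than at the milk stage, 13.1%. Of 16 such rows with no identifier, 5 were, or 31.2%, a share of few rows that was not tested. The most abundant was the row joining Sobic.006G135575 and Sobic.006G135600, at 1811 FPKM at maturity and 877 FPKM at the milk stage. The row joining Sobic.010G004900 and Sobic.010G005000 had the largest ratio of the 21, at 409 FPKM at maturity and 26.7 FPKM at the milk stage, 15.3-fold higher. A value of such a row cannot be assigned to any single gene in it.

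Some of these rows lay beside genes of the group. The row of Sobic.008G030700 and Sobic.008G030900 had 248 FPKM at maturity and 83.7 FPKM at the milk stage, a ratio of 2.97, next to Sobic.008G030600 with a ratio of 3.48. The row of Sobic.002G376800 and Sobic.002G376900 had 160 FPKM at maturity and 25.4 FPKM at the milk stage, a ratio of 6.29, next to Sobic.002G376700 at 119 and 31.1 FPKM, a ratio of 3.83. These were picked after their values were seen, and reads shared between the neighbouring rows were not tested.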
